A study of Mus musculus with 5 samples.

Results

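The genes described here code for transcription factors with a basic leucine zipper (bZIP), namely the ATF, CREB, C/EBP, JUN, FOS, BATF, MAF, CNC, BACH and PAR families, as they were measured in a pooled CRISPR screen. Members were matched by gene name alone, though the list of names was drawn up with earlier results of these data known. The names matched 43 of 1682 genes, or 430 of 17820 guides, at 10 guides per gene. One of the 43, Atf7ip, matched by its name and codes for a chromatin cofactor with no bZIP domain, which leaves 42 bZIP genes. In such a screen a guide RNA leads the nuclease Cas9 to its target in each cell, and guides whose cells drop out of the culture lose reads. There were 2 replicate libraries of the plasmid pool and 3 libraries of transduced mouse embryonic stem (ES) cells, 1 each for days 5, 8 and 12. Guides were delivered by lentivirus, and the cells were selected and kept in ES cell medium with Zeocin. Every library has Ainv15(iNgn2 Tubb3::GFP) as its genotype and no treatment in the labels, also the plasmid libraries, which hold no cells. Guide counts hold no expression values, so the ES cell label could not be checked against marker genes.

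bZIP proteins bind DNA as dimers: a run of basic residues contacts the DNA and the leucine zipper pairs the partners, so the choice of partner sets the site that is bound. ATF4 drives amino acid supply and the response to stress, often paired with a C/EBP protein; CREB1 and ATF1 respond to cyclic AMP and other kinase signals; JUN and FOS proteins form AP-1; and the CNC factors pair with small MAF proteins on antioxidant genes. In ES cells these families are studied mostly as responders to stress and growth signals, rather than as members of the core pluripotency circuit.

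The guides to Atf4 and Atf2 are shown because these genes had the lowest values among the members, and the guides of each gene differed widely. Sequences run 5′ to 3′, and capitals mark the 12 bases next to the PAM, the seed that contributes most to target recognition.
Atf4 guide 1: caaacccgACTGGTCGAAGG
Atf4 guide 2: aagaggtcCGTAAGGCAAGG
Atf4 guide 3: tctcttagATGACTATCTGG
Atf4 guide 4: ttgtcgctGGAGAACCCATG
Atf4 guide 5: gctgtcaaACTAACTCCAGG
Atf4 guide 6: cttcttctGGCGGTACCTAG
Atf4 guide 7: tcatgggtTCTCCAGCGACA
Atf4 guide 8: aaaacaagACAGCAGCCACT
Atf4 guide 9: gctccttaCACTCGCCAGTG
Atf4 guide 10: gaacagcgAAGTGTTGGCGG
Atf2 guide 1: gtatcaccATTGGTAACTGG
Atf2 guide 2: caacacccTCCAGTTACCAA
Atf2 guide 5: cctcagacCCAAAATACAAG
Atf2 guide 6: aagatcctGATGAGAAAAGG
Atf2 guide 7: cattagctGCTCTTCTTCGA
Atf2 guide 8: atgaagatCCTGATGAGAAA
Atf2 guide 9: gaagacttGAGTTCACTAAA
Atf2 guide 10: ccagctgaAACAGCTTCTTC

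A second set is shown because guides of 1 gene with overlapping target sites gave opposite values. These were chosen after their values were seen.
Atf3 guide 1: cggcccctGAAGAAGATGAG
Atf3 guide 7: ctgaagaaGATGAGAGGAAA
Atf3 guide 2: aagaagatGAGAGGAAAAGG
Atf3 guide 3: aagatgagAGGAAAAGGAGG
Nfe2l1 guide 8: tgactacaGTCATCGCCAGA
Nfe2l1 guide 9: cagtcatcGCCAGAAGGAGC
Atf7ip guide 3: agaagataGAGTGCAACAAG
Atf7ip guide 9: agagtgcaACAAGAGGCATA

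The plasmid libraries held 3541896 and 1350234 reads, and the cell libraries 1063071, 1082489 and 1008492 at days 5, 8 and 12. The members held between 2.44% and 2.57% of the reads in every library. Guides with at least 30 reads in both plasmid libraries were kept, which left 380 member guides, 6 to 10 per gene. All 43 members kept guides. A kept member guide had a median of 174.5 and 67 reads in the plasmid libraries and of 55, 56 and 48.5 reads at days 5, 8 and 12. No kept member guide was at 0 reads before day 12, and 1 was at 0 on day 12. The value of a gene is the median over its guides of the log2 ratio of scaled CPM, the library-size-adjusted read count, with 1 added, between a day and the mean of the plasmid libraries. With 1 library per time point these values have no replicate error; each SD given is between guides to the same gene, which were read in the same libraries. On this scale the typical gene lies at 0.01 on day 12, whereas 893 non-targeting guides have a median of 0.58 (SD 0.70). A gene at 0 is therefore below the control guides, and setting these to 0 moves the median of all genes to -0.57.

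The 43 members as a group, Atf7ip among them, lay with the typical gene of the library. On day 12 their medians ran from -1.39 for Atf4 to 0.75 for Hlf, with a group median of -0.0046, and 22 of 43 were below 0. Of the 43, 3 (Atf4, Atf2 and Atf1) had a median at or below -1, a 2-fold loss, against 15.8% of all genes, and 0 reached 1, against 1.19% of all genes. Within 0.5 of 0 on the log2 scale lay 33 of the 43 members. The share of all genes in this window was not computed, so the count alone gives no comparison with the library. Compared with the control guides, 41 of 43 members had medians below 0.58, against 93.8% of all genes; the exceptions were Cebpb (0.62) and Hlf. Of the kept member guides, 74, or 19.5%, lay below the 5th percentile of the non-targeting guides, against 25.6% of guides to all genes.

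The slope of summed guide reads over days was tested with edgeR's quasi-likelihood test on all 5 libraries, with the plasmid libraries at day 0 and Benjamini-Hochberg adjustment over all genes. "Fell" and "rose" below mean past an adjusted p of 0.05 in this test. Guides to 10 members fell, against 25.1% of all genes, and guides to 17 rose, against 34.6% of all genes. The slopes of these 17 members turned below 0 when libraries were scaled on the non-targeting guides. Under that scaling 28 members fell (64.3% of all genes) and 0 rose (1.07% of all genes). There, 0 members had a slope above 0, whatever the p. The DESeq2 test, run with the standard scaling, called 18 higher. Without either plasmid library the counts with the standard scaling were 5 lower and 10 higher. The 10 that fell were Atf4, Atf2, Atf1, Cebpg, Creb1, Atf7ip, Jund, Atf5, Bach1 and Atf3, and all 10 also fell under the non-targeting scaling. There 18 more members fell: Atf6, Batf, Batf3, Cebpe, Creb3l1, Creb3l4, Dbp, Ddit3, Fos, Fosb, Jun, Junb, Maff, Mafg, Nfe2, Nfe2l1, Tef and Xbp1. Where no scaling is named below, "did not pass" refers to the standard scaling. The test called most genes of the library, so each call is given with its size and the spread of guides.

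Atf4, the main effector of the integrated stress response (chromosome 15, 80255184 to 80257545, GRCm38), had the lowest median of the members. Its kept guides summed to 443 and 418 scaled CPM in the plasmid pool, and then to 288, 197 and 182 at days 5, 8 and 12. The cell libraries all lay below both plasmid libraries, and each later library was lower. The median log2 changes at these days were -0.62, -1.03 and -1.39 (day 12 SD 1.08 over 9 guides, 8 of 9 below 0), and it was -1.40 and -1.45 against either plasmid library alone. Guides to Atf4 fell at -0.11 log2 units per day (SE 0.016, edgeR quasi-likelihood adjusted p = 0.00043), as they did in all 11 alternatives. In the order of all 1682 genes from the lowest, Atf4 was in place 198.

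The guides to Atf4 did not act alike. Guide 9 had 132 and 46 plasmid reads and 31, 18 and 4 reads at days 5, 8 and 12, a log2 change of -2.80 at day 12. Guide 5 went from 178 and 52 to 29, 14 and 6 reads (-2.61), and guide 8 from 331 and 106 to 35, 25 and 13 reads (-2.54). These guides and guide 7 (96 and 32, then 13, 13 and 4 reads, -2.32) were left at between 12.0% and 16.9% of their plasmid abundance. Guides 4 and 6 lay in between, at -1.39 each, and guide 2 at -0.85. Guide 1 (-0.33) had 252 and 90 plasmid reads and 72, 41 and 51 reads in the cells. Guide 10 went from 111 and 44 to 36, 32 and 34 reads and ended at 0.18, the single guide above 0. Guides 4 and 7 share 19 bases of target on opposite strands and had -1.39 and -2.32. Guide 3 was left out by the read filter with 42 and 11 plasmid reads, and had 3, 0 and 0 reads in the cells; with at least 1 plasmid read as the filter the Atf4 median was -1.82.

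Atf2, which pairs with JUN and is activated by stress kinases (chromosome 2, 73816509 to 73892677), was the member with all of its guides below 0. The summed scaled reads were 575 and 559 in the plasmid libraries and 333, 283 and 281 at days 5, 8 and 12. Most of the drop was present at day 5, and days 8 and 12 hardly differed. The medians were -0.76, -0.99 and -1.11 (SD 0.74, 10 of 10 guides below 0), with a median of -0.19 for day 12 against day 5. Guides to Atf2 fell at -0.096 log2 units per day (SE 0.015, edgeR adjusted p = 0.000684), in all 11 alternatives. After a correction for guide GC content the day 12 median was -0.73, and with a pseudocount of 5 it was -0.96, both short of a 2-fold loss. Its guides held a mean of 9.10 G or C bases of 20.

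Overlapping guides to Atf2 gave like values at day 12. Guides 1 and 2 share 11 bases on opposite strands with cut sites 5 bases apart; guide 1 had 223 and 62 plasmid reads and 39, 33 and 12 reads at days 5, 8 and 12 (-2.00), and guide 2 had 106 and 46, then 9, 7 and 7 reads (-1.96). Earlier this pair was unlike: guide 1 had -0.55 and -0.79 at days 5 and 8, and guide 2 had -1.79 and -2.125. Guides 6 and 8, shifted by 3 bases on the same strand, had -0.41 and -0.71 at day 12. The others without an overlapping partner were guide 5 (-1.66), guide 7 (-1.55), guide 9 (-1.51) and guide 10 (-0.37). Guides 7 and 9 had the most plasmid reads of the gene, 337 and 140 for guide 7 and 409 and 129 for guide 9, and 31 and 34 reads at day 12.

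The cyclic AMP responsive factors Atf1 and Creb1 both fell. Atf1 (chromosome 15, 100227859 to 100261248) summed to 462 and 423 scaled CPM in the plasmid libraries and to 371, 312 and 317 at days 5, 8 and 12. The medians were -0.24, -0.63 and -1.02 (SD 1.08, 9 of 10 guides below 0 at day 12), a slope of -0.046 per day (SE 0.013, edgeR adjusted p = 0.0122). The call on Atf1 was lost without plasmid library 1 (edgeR adjusted p = 0.101), and the day 12 median then was -0.89 and short of a 2-fold loss, as it was without plasmid library 2 (-0.97). It was also short of it with a pseudocount of 5 (-0.89) and with at least 1 plasmid read per guide (-0.99). With at least 100 reads in both plasmid libraries Atf1 kept only guide 2, at -0.59, and did not pass (edgeR adjusted p = 0.141). Atf1 also did not pass in cells against plasmid (edgeR adjusted p = 0.0509). Its guides disagreed: guide 8 went from 159 and 45 plasmid reads to 22, 15 and 6 (-2.44), whereas guide 3 went from 130 and 55 to 58, 65 and 100 (1.45). Guide 10, which shares 16 bases with guide 8 on the other strand, had -1.79, and guides 5 and 9, which also share 16 bases, had -1.03 and -1.96.

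Creb1 (chromosome 1, 64532794 to 64604548) summed to 428 and 454 in the plasmid libraries and to 386, 329 and 354 in the cells. The cell libraries were all below the plasmid libraries, with the lowest at day 8. Its medians were -0.28, -0.47 and -0.56 (SD 0.79, 5 of 8 guides below 0), and it passed at an edgeR adjusted p of 0.0462. The call was lost without plasmid library 1 (edgeR adjusted p = 0.114), without plasmid library 2 (0.221) and without day 8 (0.100). The guides left out by the filter, 1 and 10, had 56 and 17, then 11, 5 and 3 reads, and 122 and 29, then 18, 11 and 10 reads; with them the median was -0.92. Creb1 also did not pass with at least 100 plasmid reads per guide (edgeR adjusted p = 0.176) or in cells against plasmid (0.085). Crem of the same family was not among the genes analysed here.

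Among the other stress factors Cebpg was the lowest. C/EBP gamma lacks a strong activation domain and is a known dimer partner of ATF4. Guides to Cebpg (chromosome 7, 35046422 to 35056566) summed to 407 and 398 in the plasmid libraries and to 328, 245 and 218 at days 5, 8 and 12, each later library being lower. The medians were -0.34, -0.62 and -0.81 (SD 1.12, 7 of 9 guides below 0), and its drop from day 5 to day 12, a median of -0.79, was the deepest of the members, beside -0.78 for Atf4; no member reached a 2-fold loss or gain over that interval (7.02% of all genes lower and 0.832% higher). Guides to Cebpg fell at -0.077 per day (SE 0.014, edgeR adjusted p = 0.00167) in 10 of 11 alternatives; in the comparison of all cell libraries with the plasmid libraries the adjusted p was 0.059. Guide 5 led the loss, with 170 and 52 plasmid reads and 28, 8 and 3 reads in the cells (-3.40). Guides 8 and 10, which share 18 bases, stood apart: they were low at day 5 (-1.37 and -0.52) and above 0 at day 12 (0.14 and 0.37).

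The rest of the C/EBP family lay higher. Cebpb, an activator in fat, liver and myeloid cells, had the second highest median of the members on day 12 (0.62, SD 0.39, 1 of 10 guides below 0). After the correction for guide GC content its day 12 median was 0.348, below Creb3 (0.374), Creb3l3 (0.352) and Hlf (0.589). Guides to Cebpb summed to 750 and 828 in the plasmid libraries and to 959, 1025 and 1211 at days 5, 8 and 12. Every cell library was thus above both plasmid libraries. The slope was 0.051 per day (SE 0.0077, edgeR adjusted p = 0.000581) with the standard scaling and -0.0039 (adjusted p = 0.736) when scaled on non-targeting guides. Cebpa (0.45) also rose and turned the same way, and Cebpe (-0.05) did not pass. The call on Cebpa was lost without plasmid library 1. It was also lost with at least 100 plasmid reads per guide (edgeR adjusted p = 0.0696).

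Atf3, an early-response repressor, fell in the test while its median was above 0 (0.17, SD 2.12 over 10 guides). The sum and the median part here. Of its 10 guides, 3 fell in the test of single guides (guides 2, 3 and 8). Guide 8 went from 174 and 49 plasmid reads to 33, 19 and 13 in the cells (-1.55). Guide 3 had 211 and 69 plasmid reads and 6, 3 and 0 reads in the cells, a log2 change of -5.84 and the lowest of all kept member guides. Guide 2 had 632 and 235 plasmid reads and 46, 37 and 22 in the cells (-2.85). Guides 2 and 3 overlap by 17 bases, with cut sites 3 bases apart. Guide 7, which overlaps guide 2 by 17 bases with cut sites 3 bases apart on its other side, had 198 and 78 plasmid reads and 70, 80 and 72 in the cells (0.44), and guide 1, which overlaps guide 2 by 11 bases, had 108 and 34, then 34, 48 and 27 (0.05). The summed slope of Atf3 was -0.025 per day (edgeR adjusted p = 0.0446) and was lost without plasmid library 1 (adjusted p = 0.208), without plasmid library 2 (0.129) and without day 8 (0.0721). It was also lost with at least 1 plasmid read per guide (edgeR adjusted p = 0.0718). With at least 100 reads in both plasmid libraries Atf3 kept only guide 2, so its value of -2.92 is that of a single guide. Atf5, a relative of ATF4, fell with a median of -0.25 (edgeR adjusted p = 0.0313), a call lost without plasmid library 1 (0.145), without plasmid library 2 (0.113) and without day 8 (0.0519). The call on Atf5 was also lost with at least 1 (edgeR adjusted p = 0.242) or 100 (0.0527) plasmid reads per guide. Ddit3, which codes for the stress factor CHOP, had a median of -0.08 and a slope near 0 with the standard scaling (edgeR adjusted p = 0.997). It fell under the non-targeting scaling (edgeR adjusted p = 0.00222).

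The membrane-bound factors and Xbp1, which report stress of the endoplasmic reticulum, lay close to the typical gene. Of the 7 in the library 0 fell and 3 rose with the standard scaling, beside 25.1% and 34.6% of all genes. The 7 had a median of -0.07. Under the non-targeting scaling 4 of the 7 fell (Atf6, Creb3l1, Creb3l4 and Xbp1), beside 64.3% of all genes. Xbp1, spliced on stress by IRE1, stood at -0.07 (SD 0.66, 4 of 7 guides below 0; edgeR adjusted p = 0.488), and Atf6 at -0.21 (adjusted p = 0.936). Creb3l4 was lowest (-0.30) and did not pass. Creb3l3 (0.52), Creb3 (0.42) and Atf6b (0.09) rose, and all turned below 0 without passing under the non-targeting scaling. The call on Creb3l3 was lost without day 12 (edgeR adjusted p = 0.0585), and that on Atf6b without plasmid library 1 (0.113) and without day 12 (0.203). Creb3l3 also did not pass with at least 100 plasmid reads per guide (edgeR adjusted p = 0.0503) or in cells against plasmid (0.108). Nor did Atf6b with total counts (edgeR adjusted p = 0.102) or in cells against plasmid (0.137). In Creb3l1 (-0.09), guide 3 had -2.66 and guide 8, which shares 12 bases with it, had 1.07.

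Among the AP-1 genes 1 fell, Jund. JUND is the JUN protein most linked with restraint of growth. Guides to Jund (chromosome 8, 70697739 to 70700616) summed to 535 and 578 in the plasmid libraries and to 409, 429 and 420 in the cells, so the sum was lower from day 5 on, whereas the median was not. The medians were 0.08, -0.42 and -0.39 (SD 0.62, 7 of 9 guides below 0 at day 12), and the slope was -0.038 per day (edgeR adjusted p = 0.0194), a call lost without plasmid library 1 (adjusted p = 0.0534) and without plasmid library 2 (0.118). Jun, the founding member, had a median of 0.12 (4 of 9 guides below 0; edgeR adjusted p = 0.337), and Junb, at 0.22, rose. Of the FOS genes Fos (0.34), Fosl1 (0.41) and Fosl2 rose; the median of Fosl2 was below 0 (-0.15), opposite to its summed slope. Fosb (-0.44, edgeR adjusted p = 0.363) did not pass, and its guide 9 had 174 and 56 plasmid reads and 14, 13 and 5 in the cells (-2.87). The calls on Junb and Fos were lost without plasmid library 1 (edgeR adjusted p = 0.0781 and 0.103), plasmid library 2 (0.107 and 0.189) or day 8 (0.0558 and 0.0914). That on Fosl1 was lost without plasmid library 1 (edgeR adjusted p = 0.063), plasmid library 2 (0.107), day 8 (0.0884) or day 12 (0.434), and that on Fosl2 without plasmid library 1 (0.0533). With total counts Junb (edgeR adjusted p = 0.108), Fos (0.152) and Fosl1 (0.15) also did not pass. With at least 100 plasmid reads per guide Fos (edgeR adjusted p = 0.147) and Fosl1 (0.159) did not, nor did Fosl1 in cells against plasmid (0.361). Under the non-targeting scaling Jun, Junb, Fos and Fosb fell, and Fosl1 and Fosl2 had slopes below 0 without passing. The BATF genes Batf (0.31) and Batf3 (-0.0046), dimer partners of JUN in lymphoid and dendritic cells, did not pass with the standard scaling. Under the non-targeting scaling both fell.

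The large MAF genes, lineage factors of lens, islet and myeloid cells, lay close together: Mafa (0.37) and Maf (0.42) rose, and neither passed under the non-targeting scaling, where their slopes were -0.022 and -0.028. Mafa had 2 of 10 guides below 0 at day 12 and Maf 3 of 9. The call on Mafa was lost without plasmid library 2 (edgeR adjusted p = 0.0503), and that on Maf without plasmid library 1 (0.0776), without day 12 (0.426) and with total counts (0.0819). With at least 100 plasmid reads per guide neither Mafa (edgeR adjusted p = 0.0581) nor Maf (0.223) passed. Maf also did not pass in cells against plasmid (edgeR adjusted p = 0.271). The small MAF genes code for partners without an activation domain. Mafk (0.20) rose, with a slope of -0.012 under the non-targeting scaling, and Mafg (0.39) and Maff (0.01) did not pass.

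Of the CNC and BACH genes Nfe2l1 had the lowest median and did not pass. NFE2L1 drives proteasome genes and NFE2L2 the antioxidant response. Nfe2l1 (chromosome 11, 96817414 to 96829968) had medians of -0.31, -0.63 and -0.79 (SD 0.91, 7 of 8 guides below 0), but its summed reads of 411 and 432 in the plasmid libraries and 345, 314 and 374 in the cells returned toward the start at day 12 (edgeR adjusted p = 0.189). Guide 9 went from 216 and 104 plasmid reads to 87, 109 and 146 (1.17). Guide 8 shares 14 bases with it, cuts 6 bases away and went from 93 and 38 to 12, 10 and 7 reads (-1.73). Nfe2l1 did fall under the non-targeting scaling (edgeR adjusted p = 0.0118). Nfe2l2, at 0.06 on day 12 after -0.25 at day 5, rose (edgeR adjusted p = 0.0224), and its slope was -0.023 under the non-targeting scaling. That call was lost without plasmid library 2 (edgeR adjusted p = 0.079), without day 12 (0.148), with total counts (0.0666) and in cells against plasmid (0.286). Nfe2l3 (0.30) rose and turned below 0 likewise, with the highest member medians at day 5 (0.54) and day 8 (0.59), and its call was lost without plasmid library 2 (edgeR adjusted p = 0.0541). Bach1, a repressor at the same sites, fell with a median of -0.25 (6 of 10 guides below 0; edgeR adjusted p = 0.0189), a call lost without plasmid library 2 (adjusted p = 0.117) and without day 12 (0.0911). The call on Bach1 was also lost in cells against plasmid (edgeR adjusted p = 0.0735). Nfe2 (-0.31) did not pass.

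The PAR factors and Nfil3 act on circadian output genes. Hlf had the highest median of all members on day 12 (0.75, SD 0.68, 2 of 9 guides below 0), with 381 and 313 summed scaled reads in the plasmid libraries and 382, 512 and 507 in the cells. Day 5 lay beside plasmid library 1, and days 8 and 12 were above both plasmid libraries. Hlf rose at 0.050 per day (SE 0.014, edgeR adjusted p = 0.011) and had a slope of -0.0047 (adjusted p = 0.825) under the non-targeting scaling. The call on Hlf was lost without plasmid library 2 (edgeR adjusted p = 0.0521) and in cells against plasmid (0.0921). Nfil3 (0.27) rose and turned below 0 likewise, and Tef (-0.02) and Dbp (-0.20) did not pass.

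Atf7ip, the name match without a bZIP domain, codes for a partner of the histone methyltransferase SETDB1. Its guides (chromosome 6, 136518789 to 136610850) summed to 606 and 537 in the plasmid libraries and to 411, 451 and 342 in the cells, all below the plasmid libraries. The medians were -0.70, -0.32 and -0.50 (SD 1.04, 7 of 9 guides below 0), among the lowest of the members at day 5, and guides to Atf7ip fell at -0.058 per day (SE 0.012, edgeR adjusted p = 0.00296) in all 11 alternatives. Guide 3 had 225 and 79 plasmid reads and 33, 22 and 6 in the cells (-3.06), and guide 9, which shares 13 bases with it and cuts 7 bases away, had 201 and 68, then 65, 89 and 62 (0.31).

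At the earlier days fewer members were past a 2-fold change. At day 5 there were 0 (6.30% of all genes lower and 0.0595% higher), with Atf2 lowest, and at day 8 there was 1, Atf4 (12.1% of all genes lower and 0.178% higher). The day 8 call on Atf4 was lost without plasmid library 1, where no member was past a 2-fold change, and without plasmid library 2 there were 2 such members. Among the low genes, Atf7ip had its lowest median at day 5, Atf2 had most of its loss by then, and Atf4, Atf1 and Cebpg were lower at each later day. These courses rest on single libraries, and the differences between them were not tested.

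Of 20 partners and other bZIP genes listed beside the members, 15 were in the library, 3 fell and 5 rose, beside 25.1% and 34.6% of all genes, with a median of 0.16. Those that fell were Cebpz, which despite its name is a nucleolar protein without a bZIP domain (-2.85, SD 1.74, 6 of 7 guides below 0; edgeR adjusted p = 0.000601), the acetyltransferase gene Ep300, a coactivator of CREB and AP-1 (-1.27, 6 of 7 guides below 0; adjusted p = 0.00217), and the NF-Y subunit gene Nfyb (-1.10, 8 of 9 guides below 0; adjusted p = 0.000178). Crebbp, the close relative of Ep300, had a median of -0.26 and did not pass (edgeR adjusted p = 0.0899). Those that rose were Trib3, a pseudokinase gene induced by ATF4 (0.99, 0 of 9 guides below 0; edgeR adjusted p = 4.5e-05), Irf4 (0.50), Crebzf (0.28), Crebl2 (0.26) and Tsc22d4 (0.16). Under the non-targeting scaling Trib3 kept a slope above 0 (0.026, adjusted p = 0.0697), Irf4 (adjusted p = 0.0415) and Crebzf (0.0128) fell, and Crebl2 (0.326) and Tsc22d4 (0.41) had slopes below 0 without passing.

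Single guides were tested the same way, over all kept guides. Of 380 member guides 64 fell, against 24.2% of guides to genes and 4.82% of non-targeting guides, and 59 rose, against 16.3% of guides to genes and 45.9% of non-targeting guides. Without plasmid library 1 these counts were 31 and 28, and without plasmid library 2 they were 38 and 27. The shares of all guides are not given for these alternatives, so the counts make no comparison with the library. Atf4 had 7 guides that fell, and Atf1 and Atf2 had 6 each, while Cebpb and Hlf had 5 each that rose. No member guide shared its whole sequence with another guide of the library. Within genes, 87 pairs of kept member guides in 38 genes overlapped by at least 10 bases, and their day 12 values differed by a median of 0.664, against 0.699 in 1429 pairs without overlap; in all genes the medians were 0.682 and 0.738. The difference between these medians was not tested. Pairs alike at day 12, as in Atf2, and unlike ones, as in Atf3, Nfe2l1 and Atf7ip, both occur. Across kept member guides the day 12 change was 0.172 log2 units higher per G or C base, and across non-targeting guides 0.125 higher, a description over guides that share libraries.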

How the data were processed

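Each deposited table lists unnormalized counts of reads for every guide, as whole numbers. The submitters' processing notes name cutadapt, Bowtie, featureCounts and mm10 with no version; what the guide reads were aligned to is not given in the sources used here. Counts of kept guides (at least 30 reads in both plasmid libraries) were scaled with TMM factors of edgeR 4.0.16 (R 4.3.3). Gene medians used log2 ratios of scaled CPM plus 1 and have no test. Slopes per day used glmQLFit and glmQLFTest with 3 residual degrees of freedom, 1 fit over all genes and 1 over all guides. The method was also run on simulated counts, where guides of a gene shared the same slope and non-targeting guides did not shift. The data differ in both, so that run is no check of the calls given here. Days are those of the sample titles, counted from transduction, whereas the protocol counts from selection. It is not given whether time points share a culture, nor whether the plasmid replicates are separate preparations, so p-values may measure technical spread only. Intervals for counting error are not given, since reads are not separate cells. Gene symbols and coordinates are from RefSeq (GRCm38.p6), with 43 of 43 matched; guide cut sites in the genome were not analysed here. Named genes were members past the slope test or a 2-fold median on day 12, the lowest and highest of each family, and 15 genes of wide interest; single guides were described for the 2 lowest members and, after their values were seen, for others. Values of 1 member and of 2 guides are not reported here, though they enter the counts and medians. The members and lists were chosen with earlier results of these data known. Alternatives changed the pseudocount, read filter, scaling (DESeq2 1.42.0 size factors among them), GC correction, gene score, test (DESeq2) and libraries used.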

Additional observations from a re-analysis of the deposited data

How the results depend on the processing

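Counts of members past a 2-fold median on day 12 (3) became 1 with a pseudocount of 5, 5 with at least 100 plasmid reads per guide, and 8 with the non-targeting median at 0, and ranged from 2 to 2 when a plasmid library was left out. On day 8 (1) they became 0 with a pseudocount of 5, 3 with at least 100 reads, 2 with total counts, 6 with the non-targeting median at 0, 2 with means over guides, and 0 to 2 without a plasmid library. On day 5 (0) they became 5 with at least 100 reads and 3 with the non-targeting median at 0. They stayed at 0 when plasmid library 1 or plasmid library 2 was left out. For day 12 against day 5 (0) there was 1 with at least 100 reads. All these changes were losses, and with at least 100 reads only 42 members could be measured. In each of these alternatives the share of members past a 2-fold loss was below that of all genes, with 1 exception. On day 5 with at least 100 reads the members' share was the higher. These differences in share were not tested. On day 12 Atf2 with the GC correction (-0.73) and Atf1 with at least 1 plasmid read per guide (-0.99) were also short of a 2-fold loss. For summed reads, the members that fell (10) became 28 with factors from non-targeting guides, and 5 to 12 when a single library was left out. They were 5 without plasmid library 1 and 5 without plasmid library 2. Those that rose (17) became 11 with at least 100 reads, 11 with total counts, 0 with non-targeting factors and 11 in cells against plasmid. They became 10 to 17 when a single library was left out, 10 without plasmid library 1 and 10 without plasmid library 2. Of single guides, those that fell (64) became 18 of 113 with at least 100 reads, 155 with non-targeting factors, and 31 to 78 when a library was left out. Those that rose (59) became 27, 5, and 27 to 67 in the same alternatives. Apart from the 28 and 0 members, whose shares stand above, these slope counts are given without the share of all genes or guides. They make no comparison with the library. With non-targeting factors these slopes turned below 0: Atf6 (-0.055), Atf6b (-0.029), Batf (-0.037), Batf3 (-0.041), Cebpa (-0.018), Cebpb (-0.0039), Cebpe (-0.035), Creb3 (-0.0081), Creb3l1 (-0.042), Creb3l3 (-0.017), Fos (-0.028), Fosl1 (-0.030), Fosl2 (-0.020), Hlf (-0.0047), Junb (-0.028), Maf (-0.028), Mafa (-0.022), Maff (-0.036), Mafg (-0.044), Mafk (-0.012), Nfe2l2 (-0.023), Nfe2l3 (-0.0098), Nfil3 (-0.0074) and Tef (-0.053); that of Tef also turned with at least 100 reads (-0.036). These factors set control guides to no change by construction; the cause of the other shifts was not tested. No paired analysis was possible because only the plasmid libraries carry replicate numbers and each time point has 1 library. A median of 48.5 reads per kept member guide limits what single guides show at day 12.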

Other observations

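Guides made almost wholly of A and G stood low. Of the kept member guides, 7 had at least 17 purines in 20 bases, with a day 12 median of -1.03 against 0.027 for the other 373. Over all genes 89 such guides had a median of -1.04 against -0.06 for the other 14354, and none of the kept non-targeting guides was of this kind. The lowest of the 7 were Atf3 guides 3 and 2, with 19 purines each, and the highest was Atf3 guide 7 (0.44). The mean GC content was 47.1% in the 7 and 56.8% in the rest. The class was chosen after the Atf3 values were seen, and no test was made.

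The read filter left out 50 member guides, of which 10 had no plasmid reads. Guides 1 of Nfe2l1 (18 and 5 plasmid reads) and 3 of Atf4 had no reads at days 8 and 12, a loss that such low plasmid counts measure poorly.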
